A study of Mus musculus with 6 samples.

Results

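The genes described here encode 48 proteins of the cytosolic ribosome, 28 of the large subunit (Rpl genes and the stalk proteins) and 20 of the small subunit (Rps genes, Rpsa and Fau). They were taken by symbol from a table of 45470 named genes, and all 48 were among the 15398 genes with enough counts to be tested. Gene expression had been measured by RNA sequencing of prefrontal cortex homogenate from mice at postnatal week 8, in 3 wild type libraries and 3 libraries heterozygous for the 16p11.2 duplication. People with this duplication more often have autism or schizophrenia, and the mouse carries the matching segment of its chromosome 7 in an extra copy. The series' design text gives 1 background for the animals, made on hybrid C57BL/6N:129Sv and then crossed for 10 generations onto C57BL/6. The deposited gene names had slipped against the counts for 65.1% of names, and 29 of the 48 genes lay in a slipped stretch. Names were moved back to their counts before any value was taken.

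Each ribosomal protein gene makes a small, very abundant protein that is assembled with ribosomal RNA in the nucleolus, and the subunits join on messenger RNA to translate it. Because the proteins are needed in equal amounts, their genes are expressed together, and many of their messages start with a run of pyrimidines, the 5′ terminal oligopyrimidine tract or TOP, through which mTORC1 controls their translation. In neurons ribosomes also work in dendrites and axons, where local translation serves synaptic plasticity.

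Total gene counts ran from 12988457 to 21872271 per library. The cortical markers were present: all 8 excitatory and all 8 inhibitory neuron markers looked for were tested, against 1 of 8 choroid plexus markers. However, 7 of 8 striatal neuron markers and all 12 meningeal fibroblast markers were tested too, so passing the filter does not exclude neighbouring tissue. Of 22 tested genes of the duplicated segment, 21 had a positive log2 fold change and 18 had every duplication library above every wild type library, with a median of 1.68-fold. Wild type replicate 2 stood apart from the other wild type libraries. On the first axis of variation over all genes, which held 45.52% of the variance, it lay on the side of the duplication libraries. Results that rest on it are therefore given with and without it.

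A TOP-like run was found at the start of 15 of the 38 genes matched in RefSeq's table, so most matched genes had none. Transcription starts of 6 genes with a run and 2 without are printed first, as examples. They are the stretches from RefSeq's GRCm38.p6 start, 15 bases before it and 15 from it on, written 5′ to 3′ on the transcribed strand, with capitals from the C nearest the start to the end of its run of C and T; pyrimidines before that C stay in lower case.
Fau, chr19:6057932-6057961, plus strand: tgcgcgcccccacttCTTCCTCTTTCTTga
Rpl18, chr7:45718056-45718085, plus strand: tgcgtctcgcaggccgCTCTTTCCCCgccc
Rps6, chr4:86857353-86857382, minus strand: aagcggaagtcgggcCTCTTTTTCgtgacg
Rpl28, chr7:4792950-4792979, plus strand: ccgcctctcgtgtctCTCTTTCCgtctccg
Rps24, chr14:24490663-24490692, plus strand: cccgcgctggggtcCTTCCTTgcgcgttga
Rplp2, chr7:141447636-141447665, plus strand: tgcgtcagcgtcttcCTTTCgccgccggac
Rplp0, chr5:115559452-115559481, plus strand: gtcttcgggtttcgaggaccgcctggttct
Rps4x, chrX:102189377-102189406, minus strand: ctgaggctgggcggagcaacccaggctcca
Counted from that C, the run has 13 bases in Fau, 10 in Rpl18, 9 in Rps6, 8 in Rpl28, 7 in Rps24 and 5 in Rplp2, and counts from an earlier C would be longer in several of them, so the lengths give no order. Rplp0 and Rps4x have no match in this window, which says only that the letters are not there. Where RefSeq listed several starts, one with a run was taken before one nearer the start of the gene in GENCODE. Rps24 has 2 listed starts, and the printed one lies 3553 bases from the GENCODE start. For Rpl18 the 1 listed start lies 2614 bases from it.

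A run was counted when a C followed by at least 4 bases that are each C or T began within 3 bases of a RefSeq start, on the transcribed strand alone, and no other motif was searched. RefSeq's table held 38 of the 48 genes, and 15 of the 38 (39.5%) had such a start. Over all 27025 genes in that table the share was 13.5% (3651 genes), with nearly the same number of listed starts per gene (1.21 for the ribosomal protein genes and 1.22 for all). By subunit, 8 of 21 matched large subunit genes and 7 of 17 matched small subunit genes had the run. A start set a few bases off by the annotation hides a run, so the share is a description of this table.

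The genes are scattered over 20 chromosomes. Chromosome 7 carries 8 of them, more than any other, and none lies in the duplicated segment. Rps4x is the 1 member on the X chromosome. Their gene spans run from 1069 to 31449 bp with a median of 3676 bp, and their proteins from 56 residues (Rps29) to 419 residues (Rpl4). A small nucleolar RNA gene, which guides chemical modification of ribosomal RNA, lay inside 16 of the 48.

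Sequence shared with other loci limits the counts of single genes. For 45 of the 48, the genome held at least 1 annotated pseudogene copy with 90% or more identity over 80% or more of the coding sequence, with a median of 7 copies. Rpl17 had the most, 50, and Rpl8, Rplp2 and Rps3 had none. Across the 48 genes, Spearman's rho between the number of copies and the log2 fold change was -0.18, given as a description since the genes share libraries. Rpl24 shared 47.0% of its exon length with Gm28037, a transcript annotated on the same strand, so its counts are uncertain. Rpl30, Rpl35, Rpl5, Rps25, Rpl18 and Rpl28 overlap an exon of a gene on the opposite strand by 183 to 953 bases, and no source used here says whether strand was used in counting.

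Levels are compared between genes per length, as library-scaled counts (CPM, with TMM factors) per kilobase of annotated exon, averaged over the 6 libraries. The 48 genes spanned 9.775 to 563.2 CPM per kb with a median of 58.24, and the medians were 49.93 for the large and 66.54 for the small subunit. Among large subunit genes Rplp1, an acidic protein of the stalk that recruits elongation factors, was highest at 563 CPM per kb, followed by Rpl4, which lines the exit tunnel for the growing chain, at 197 and Rpl38 at 154. Among small subunit genes the order was Rps15 (281 CPM per kb), Rps29 (259) and Rps21 (152). The exon length joins all annotated transcripts of a gene and can exceed that of its main message. It was 630 bases for Rps15 and 6256 bases for Rps24. Rps24 had 30.09 CPM per kb, although its wild type mean was 195.6 CPM against 168.1 CPM for Rps15. The order, the range and the subunit medians therefore depend on annotated length as well as on counts. Rpl24 was the lowest at 9.775 CPM per kb, with the overlap given above. Across the 48 genes the level had a Spearman's rho of -0.066 with the genotype difference.

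**Figure D1:**
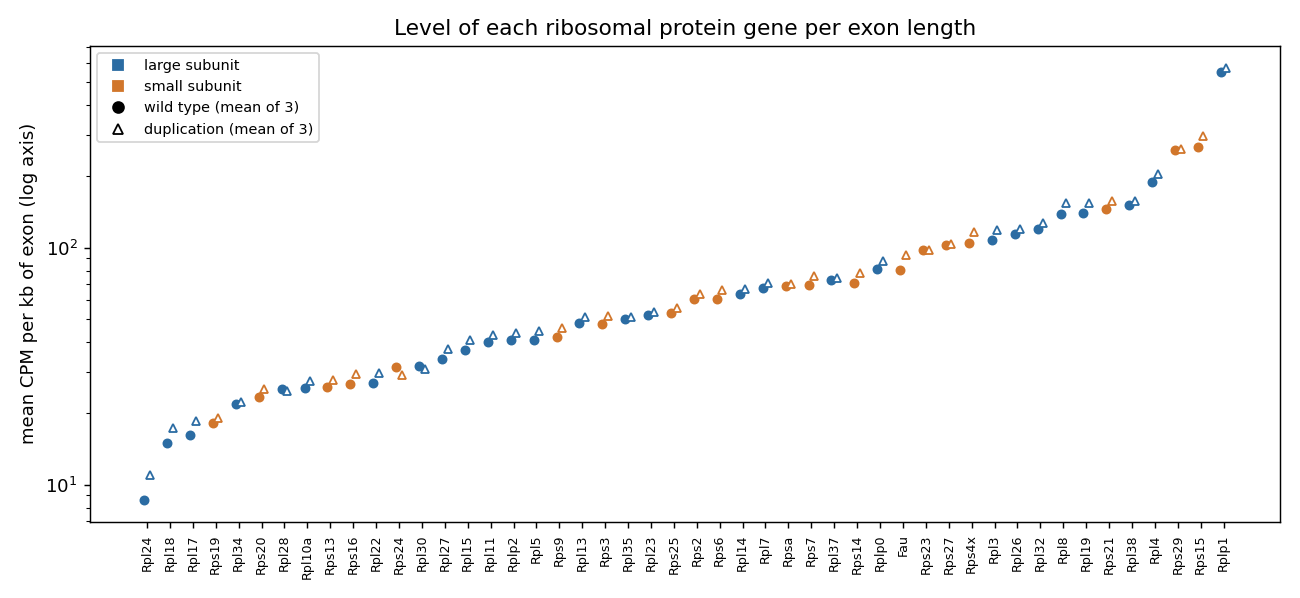
Mean CPM per kb of exon on a log axis for each of the 48 genes, ordered by the mean over the 6 libraries, with filled circles for the mean of 3 wild type libraries and open triangles for the mean of 3 duplication libraries (blue, large subunit; orange, small subunit). The genes run from Rpl24 to Rplp1, and the triangle sits slightly above the circle for 44 of them.

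The ribosomal protein genes moved together from library to library. Expressed as log2 CPM minus each gene's mean over the 6 libraries, the median of the 48 genes was -0.12, 0.06 and -0.09 in the wild type libraries, replicates 1 to 3, and 0.07, 0.06 and 0.02 in the duplication libraries. Values per library are given in this order throughout. Wild type replicates 1 and 3 were low, and wild type replicate 2 was at the level of the duplication libraries. Both subunits had this shape: the large subunit medians were -0.12, 0.06, -0.09, 0.06, 0.06 and 0.02 in the same order, and the small subunit medians -0.13, 0.06, -0.09, 0.08, 0.05 and 0.02. The summed level of the 48 genes was 5752, 6549.8 and 5878.6 CPM in the wild type libraries and 6567.4, 6471.5 and 6309.2 CPM in the duplication libraries. As a share of all used counts this is 0.563%, 0.661% and 0.583% in wild type and 0.663%, 0.649% and 0.63% in duplication libraries.

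Single genes followed the medians closely. Wild type replicate 2 exceeded both other wild type libraries for 48 of 48 genes, against 38.6% of all tested genes, at a median of 1.133 times their mean. For 42 of the 48 it also exceeded the lowest duplication library. The lowest library was wild type replicate 1 for 27 genes and wild type replicate 3 for 18, duplication replicate 2 for 2 and duplication replicate 3 for 1. The highest was duplication replicate 1 for 22 genes and wild type replicate 2 for 21. A single axis held 72.1% of the variance of the 48 genes over the libraries, against 45.52% for all tested genes. These shares were not matched for level, and the median of mean CPM was 112.5 for the 48 genes and 18.35 for all tested genes. The coefficient of variation within a group had a median of 7.967% in wild type and 2.796% in duplication libraries.

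**Figure D2:**
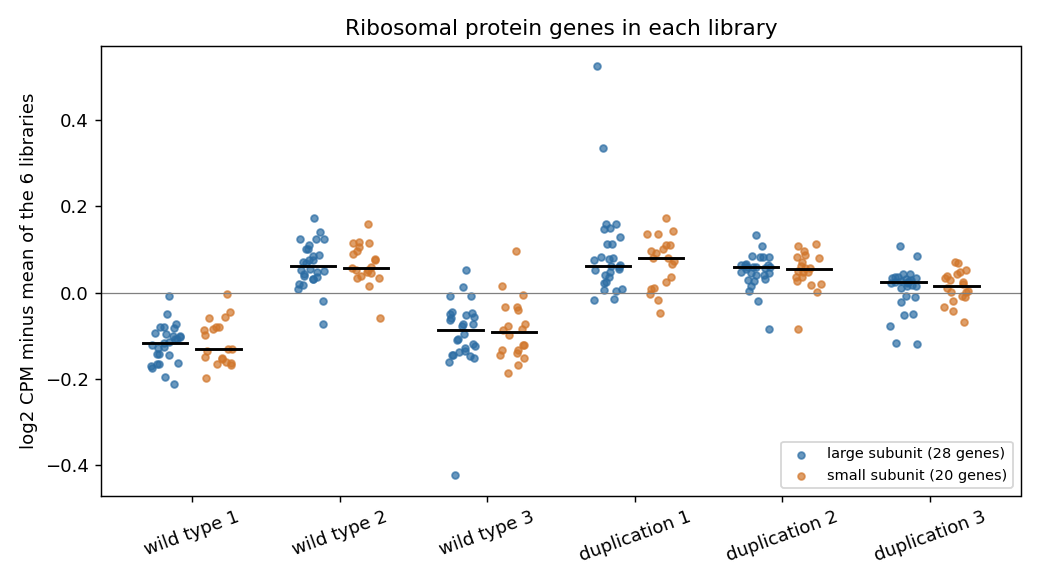
Log2 CPM of each gene minus its mean over the 6 libraries, 1 point per gene and library, with black bars at the medians of the 28 large subunit genes (blue) and 20 small subunit genes (orange). Wild type replicates 1 and 3 have medians below 0, and wild type replicate 2 lies with the 3 duplication libraries.

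Between genotypes, 44 of the 48 ribosomal protein genes had a positive log2 fold change in duplication cortex, 26 of 28 in the large and 18 of 20 in the small subunit, against 51% of all tested genes. The differences were small. The median log2 fold change was 0.10 (1.073-fold), with 0.09 (1.067-fold) for the large and 0.11 (1.078-fold) for the small subunit, and 0.005 over all tested genes. No gene passed the edgeR quasi-likelihood test with Benjamini-Hochberg adjustment over all genes: 0 of 48 were higher and 0 lower, as for all tested genes (0% in each direction). The smallest adjusted p of the 48 was 0.1746, for Fau. At an unadjusted p under 0.05, 4 were higher (Fau, Rpl18, Rpl15 and Rps4x) and 0 lower, where 7.05% of all tested genes were higher and 12.2% lower. DESeq2 also called 0 of the 48, and 0.299% and 1.55% of all tested genes as higher and lower. In bulk tissue, a change in the number of cells of a type and a change in RNA per cell cannot be told apart.

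The estimates lay close together. The log2 fold changes ran from -0.11 (Rps24) to 0.36 (Rpl24) with an interquartile range of 0.077, against 0.28 for all tested genes and 0.22 for the 7364 other genes with a mean of at least 20 CPM. Their standard errors ran from 0.056 to 0.18 with a median of 0.072. Single genes ranged from differences larger than their error (Fau, 0.21 ± 0.06) to differences far below it (Rps23, -0.01 ± 0.06). The 95% interval included 0 for 44 genes. Its upper end was under 1.5-fold for 47 genes, the exception being Rpl24 at 1.711-fold. Every duplication library lay above every wild type library for 6 genes (Rpl8, Rpl15, Rpl18, Rps4x, Rps20 and Fau), 12.5% of the 48, and below for 0. The shares over all tested genes were 11.7% and 10.5%, so the count of the 48 was near the background.

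**Figure D3:**
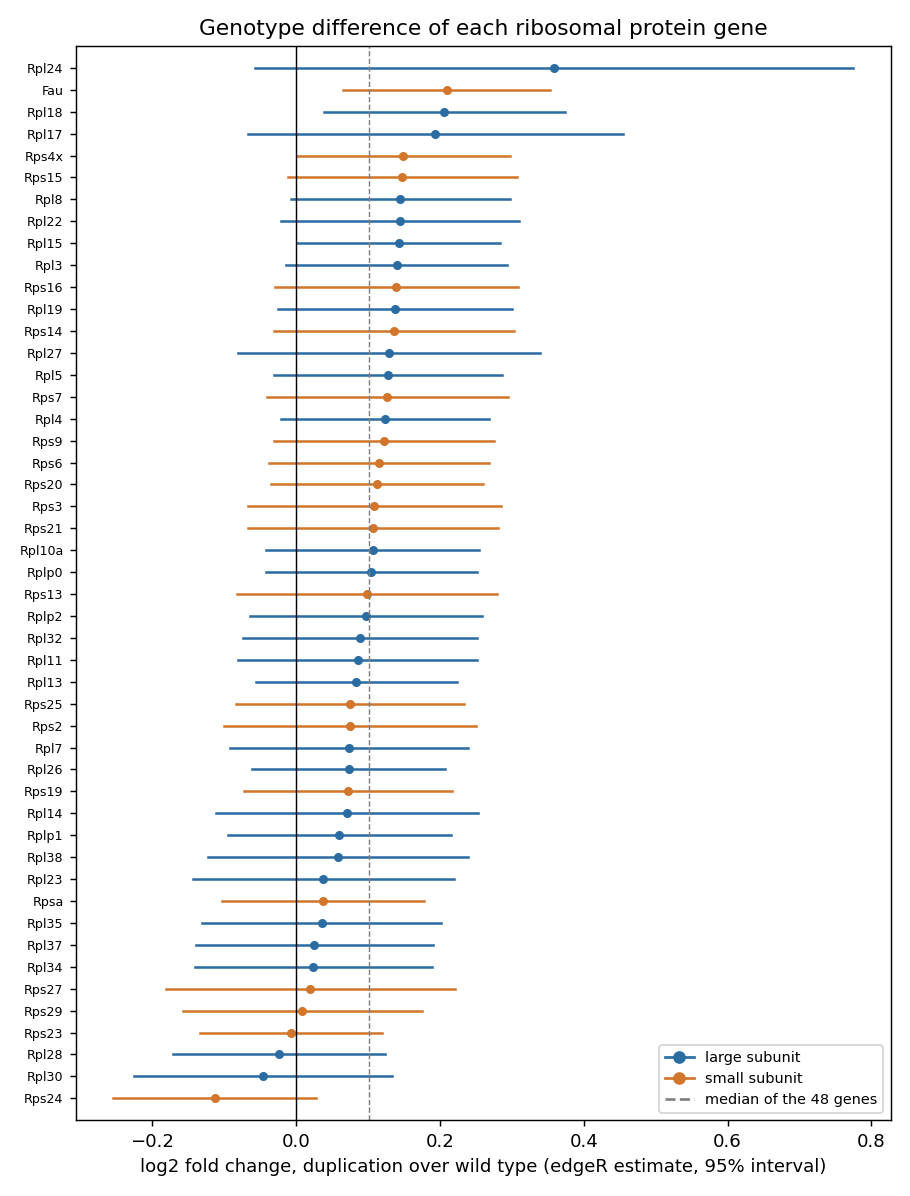
Log2 fold change of duplication over wild type for each of the 48 genes, as edgeR estimates with 95% intervals (blue, large subunit; orange, small subunit), and a dashed line at their median. All but 4 estimates lie above 0, and 44 of the intervals include 0.

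Among large subunit genes, the highest estimates were those of Rpl24, Rpl18 and Rpl17. Rpl18, on chromosome 7 at 45715457 to 45720836 (GRCm38, plus strand), encodes a protein whose gene is among those mutated in Diamond-Blackfan anaemia, an inherited failure of red cell production. It had 58.12, 66.03 and 58.32 CPM in wild type and 72.83, 71.61 and 66.08 CPM in duplication libraries. The groups did not overlap, by a margin of under 1 CPM between wild type replicate 2 and duplication replicate 3. The log2 fold change was 0.21 ± 0.07 (SE, n = 3 per group; 95% interval 0.04 to 0.37; edgeR adjusted p = 0.198). Rpl24, a protein at the bridge between the subunits, had 9.528, 9.741 and 7.326 CPM in wild type and 14.26, 10.48 and 9.08 CPM in duplication libraries. Its value rested on few counts (100 to 312 per library) and on duplication replicate 1, without which the log2 fold change was 0.14, against 0.36 ± 0.18 with it (adjusted p = 0.3164). Rpl17, at the exit of the tunnel, had 21.68, 21.78, 21.25 CPM in wild type and 28.97, 23.6 and 21.12 CPM in duplication libraries. Duplication replicate 1 was again the high library, and the log2 fold change of Rpl17 was 0.19 ± 0.12 (adjusted p = 0.3785) with it and 0.05 without it.

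The lowest large subunit estimates belonged to Rpl30, Rpl28 and Rpl34. Rpl30 had 87.34, 105.7 and 93.26 CPM in wild type and 96.09, 92.5 and 88.85 CPM in duplication libraries. Wild type replicate 2 was its highest library, and the log2 fold change was -0.05 with all libraries and 0.03 without that one. Rpl28 had 45.89, 47.87 and 45.86 CPM against 46.92, 43.48 and 46.91 CPM, with a log2 fold change of -0.02 ± 0.06. Rpl34 had 54.47, 63.38 and 55.24 CPM against 58.35, 58.29 and 59.46 CPM, with a log2 fold change of 0.02 ± 0.07. In each of the 3 the groups overlapped and the adjusted p was 0.78 or more.

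The most abundant large subunit genes per length differed little. Rplp1 had 258.8, 300.9 and 265.9 CPM in wild type and 281.3, 292.5 and 287 CPM in duplication libraries, a log2 fold change of 0.06 ± 0.07 (adjusted p = 0.6502). Its stalk partners Rplp0, the base of the stalk, and Rplp2 had log2 fold changes of 0.11 ± 0.06 and 0.10 ± 0.07 (adjusted p = 0.3946 and 0.4704). Rplp0 had 131.2, 145.8 and 129.1 CPM against 148, 144.2 and 144.6 CPM. For Rplp2 the values were 77.73, 91.49 and 83.52 CPM against 90.97, 90.94 and 88.6 CPM. In all 3 stalk genes wild type replicate 2 lay among or above the duplication libraries. Rpl4 had 365.6, 402.7 and 365.3 CPM against 426, 417.3 and 392 CPM (log2 fold change 0.12 ± 0.06, adjusted p = 0.3168), and Rpl38, linked to translation of Hox messages in the embryo, had 73.84, 90.8 and 80.73 CPM against 84.62, 86.89 and 84.18 CPM (0.06 ± 0.08, adjusted p = 0.7088). Both overlapped between groups.

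Among small subunit genes, Fau had the highest estimate. Fau encodes a fusion of a ubiquitin-like protein with ribosomal protein S30, which is cut off and built into the small subunit. It lies on chromosome 19 at 6057844 to 6059524 (GRCm38, plus strand), and its start holds the pyrimidine run shown above. It had 78.45, 79.94 and 74.14 CPM in wild type (mean 77.5 ± 3.01, SD, n = 3) and 93.94, 87.43 and 87.4 CPM in duplication libraries (mean 89.6 ± 3.77, SD, n = 3). The groups did not overlap, and the distance between them exceeded the spread within each. Its log2 fold change was 0.21 ± 0.06 (95% interval 0.07 to 0.35, adjusted p = 0.1746), and wild type replicate 2 was only 1.048 times the mean of the other wild type libraries. Rps4x, an X-linked protein of the small subunit body, had 160.8, 184.7 and 168.5 CPM against 192.2, 191.5 and 186.4 CPM, with no overlap and a log2 fold change of 0.15 ± 0.07 (adjusted p = 0.2562). Rps15, a protein of the subunit head, had 158.1, 183.8 and 162.4 CPM against 190.8, 187.2 and 180.8 CPM, with wild type replicate 2 above duplication replicate 3 and a log2 fold change of 0.15 ± 0.07 (adjusted p = 0.2833).

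Rps24 had the lowest estimate of all 48 genes. It lies on chromosome 14 at 24487125 to 24496959 (GRCm38, plus strand) and is another of the genes mutated in Diamond-Blackfan anaemia. It had 182.2, 203.5 and 201.1 CPM in wild type and 181.9, 177.2 and 183.6 CPM in duplication libraries, a log2 fold change of -0.11 ± 0.06 (95% interval -0.25 to 0.03, adjusted p = 0.3478). Wild type replicates 2 and 3 lay above all duplication libraries, and wild type replicate 1 lay among them. Rps23, a protein of the decoding centre, had 123.7, 127.9 and 121.2 CPM against 124.8, 124 and 122.2 CPM (-0.01 ± 0.06, adjusted p = 0.9592). Rps29 had 161.6, 194.3 and 181.3 CPM against 177.2, 182.7 and 180.7 CPM (0.01 ± 0.07, adjusted p = 0.9607). For Rps23 the 95% interval reached from 0.9121-fold to 1.086-fold, and for Rps29 from 0.8968-fold to 1.129-fold.

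Small subunit genes with known roles beside the ribosome or a high level were spread through the middle. Rps6, the protein that S6 kinase phosphorylates downstream of mTORC1, had 90.51, 104.2 and 95.31 CPM against 106.2, 104.7 and 103.4 CPM, a log2 fold change of 0.12 ± 0.07 (adjusted p = 0.37). Rpsa, which also occurs at the cell surface as a laminin receptor, had 205.9, 232.6 and 214.4 CPM against 221.8, 223.5 and 225 CPM (0.04 ± 0.06, adjusted p = 0.7635). Rps21 had 108.9, 129.1 and 116.4 CPM against 134.6, 125.5 and 121.8 CPM (0.11 ± 0.08, adjusted p = 0.46). In all 3, wild type replicates 1 and 3 were the lowest of the wild type libraries and wild type replicate 2 lay among or above the duplication libraries.

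Grouped by role, a grouping made after the values had been seen, the genes were alike. Rpl5 and Rpl11, which bind 5S ribosomal RNA and stabilise p53 when assembly fails, had log2 fold changes of 0.13 and 0.09. The 3 stalk genes had a median of 0.10. The 5 genes around the exit tunnel (Rpl4, Rpl17, Rpl19, Rpl26 and Rpl35) were all positive with a median of 0.12. Of 12 genes mutated in Diamond-Blackfan anaemia 11 were positive, with a median of 0.08 and a range from -0.11 (Rps24) to 0.21 (Rpl18). Genes with a TOP-like start had a median of 0.07 (15 genes) and matched genes without one 0.11 (23 genes). Those holding a small nucleolar RNA gene had a median of 0.10 (16 genes) and the others 0.11 (32 genes). The 8 genes on chromosome 7 had a median of 0.10.

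Without wild type replicate 2 the estimates were higher. The library left out was the highest wild type library for each of the 48 genes, so leaving it out lowers the wild type mean of each and moves every estimate upward. The median log2 fold change was then 0.16 (1.116-fold), 46 of 48 were positive where 51.4% of all tested genes were, and 37 had no overlap between groups against 24.5% of all tested genes. Of the 48, 9 rose (edgeR adjusted p under 0.05, 18.75%) and 0 fell, against 4.65% higher and 10.7% lower of the 15712 genes then tested. These were Rpl18 (log2 fold change 0.27 ± 0.07, adjusted p = 0.02577), Rps7 (0.21 ± 0.05, adjusted p = 0.03021), Rps15 (0.22 ± 0.06, adjusted p = 0.03067), Rpl19, Rps4x, Rpl27, Rpl3, Fau and Rps3. The last 6 had log2 fold changes of 0.19 to 0.24 and adjusted p of 0.035 to 0.048. With each of the other 5 libraries left out in turn, 0 of the 48 were called. Without wild type replicate 1 the median was 0.06, with 36 of 48 positive.

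Values per library of 5 of the genes called without that library were alike. Rps7, which binds the p53 regulator MDM2, had 130.8, 154.9 and 132.7 CPM in wild type and 152.3, 151.8 and 152.8 CPM in duplication libraries. The duplication libraries stood within 1 CPM of their mean, wild type replicate 2 stood above them all, and the log2 fold change was 0.13 ± 0.07 with all 6 libraries (adjusted p = 0.3694). Rpl27 had 47, 60.11 and 49.6 CPM against 57.66, 55.11 and 58.77 CPM, and wild type replicate 2 was 1.245 times the mean of the other wild type libraries. Rps3, a protein of the entry channel that also takes part in DNA repair, had 202.5, 238.6 and 200.4 CPM against 239.3, 230.8 and 221.8 CPM. Rpl3, next to the peptidyl transferase centre, had 330.6, 370.6 and 323.7 CPM against 391.8, 371.8 and 365.6 CPM, and Rpl19 had 137.7, 157.9 and 135.6 CPM against 158.6, 162.3 and 153.5 CPM. All 5 had 2 low wild type libraries and 1 at the level of the duplication libraries. This pattern follows from their choice as genes called only without that library.

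Other measures moved with these libraries. The mean log2 level of 290 transcripts of the classes TEC (unverified gene models) and sense intronic, relative to the 6 libraries, was 0.47, -0.0009 and 0.53 in wild type and -0.44, -0.43 and -0.13 in duplication libraries. It was highest in the 2 wild type libraries where the ribosomal protein genes were lowest, and lower in all duplication libraries than in any wild type library. With this level as a covariate, in a fit with 3 residual degrees of freedom, the median of the 48 genes was -0.09, with 2 positive and 46 negative where 49.7% of all tested genes were positive. None was called in that fit (0 of 48; smallest adjusted p = 0.9993), in which 0 had an unadjusted p under 0.05 in the higher direction and 2 in the lower. Since the level and the genotype nearly coincide in 6 libraries, their parts in the result cannot be told apart.

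Gene span moved with the genotype difference as well. Over all tested genes the median log2 fold change was 0.03 for 2380 genes under 5 kb, 0.05 for 4313 genes of 5 to 20 kb, -0.0015 for 5665 genes of 20 to 100 kb and -0.09 for 2200 genes of 100 kb or more. The median span of the ribosomal protein genes falls in the shortest class. Median log2 fold changes were 0.10 for these genes and 0.03 for that class. The part of gene span in the ribosomal protein result was not tested. Across 14558 genes Spearman's rho of fold change with span was -0.17, a description since genes share libraries.

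Markers of several cell types differed between these libraries, with 0 called in any list. For meningeal fibroblasts, cells of the membrane over the cortex, all 12 markers were tested and none was at 0. Their summed level was 35.4 to 46.2 CPM in wild type and 53.2 to 97.5 CPM in duplication libraries, all 12 log2 fold changes were positive and 10 had an unadjusted p under 0.05, where 7.05% of all tested genes were higher at that p (smallest adjusted p of the markers 0.1627). The marker median per library was -0.54, -0.57 and -0.09 in wild type, so wild type replicate 2, high in ribosomal protein genes, was not high in these markers. The summed level of 5 red blood cell markers was 55.4, 101.1 and 63.3 CPM in wild type and 79.1, 126 and 68.9 CPM in duplication libraries, highest in wild type replicate 2 among the wild type. Of 8 excitatory neuron markers 6 were negative, and their median per library was 0.19, -0.09 and 0.06 in wild type and -0.09, -0.10 and -0.02 in duplication libraries. These medians were high in the 2 wild type libraries low in ribosomal protein genes, and wild type replicate 2 lay with the duplication libraries. Of 8 astrocyte markers 8 were positive (median log2 fold change 0.13), and of 8 oligodendrocyte markers 0 were (median -0.34). Microglia markers were positive for 7 of 8, endothelial for 6 of 8, inhibitory neuron for 4 of 8 and striatal for 2 of 7. The microglia medians per library were -0.05, 0.03 and -0.13 in wild type and 0.07, 0.03 and 0.05 in duplication libraries. For endothelial markers they were -0.13, 0.07 and -0.14 against 0.21, -0.02 and -0.03. In both lists wild type replicate 2 was the highest wild type library. The part of any of these cell types in the ribosomal protein result was not tested.

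**Figure D4:**
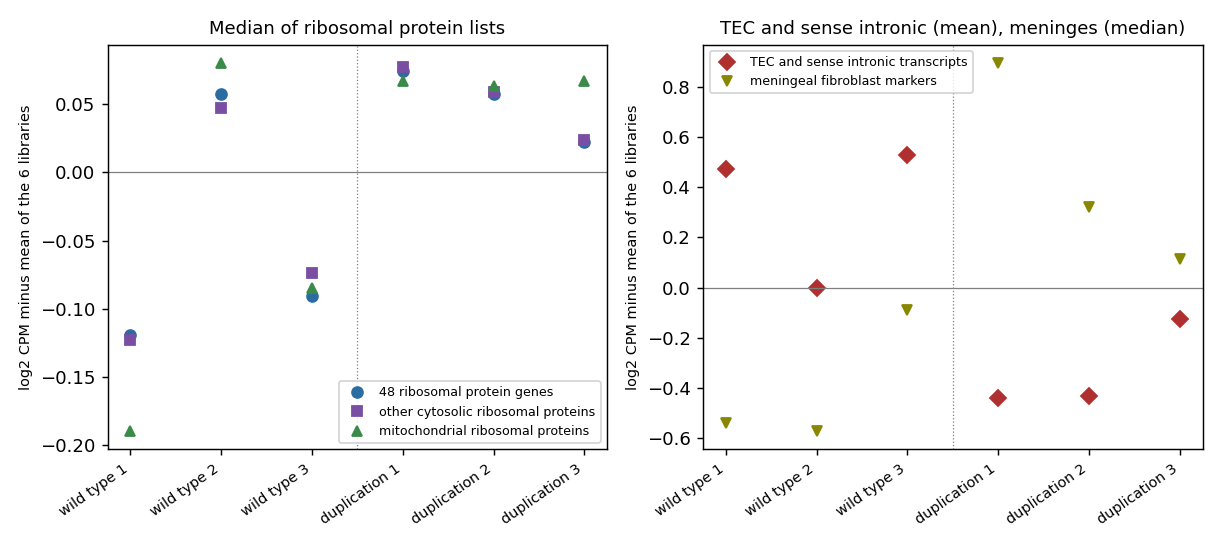
Left, the median log2 CPM relative to the 6 libraries for the 48 ribosomal protein genes (circles), the other cytosolic ribosomal protein genes (squares) and the mitochondrial ribosomal protein genes (triangles) in each library. Right, on its own scale, the mean of 290 TEC and sense intronic transcripts (diamonds, 0.47 and 0.53 in wild type replicates 1 and 3) and the median of 12 meningeal markers (triangles).

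The rest of the translation apparatus was read from the same fit, and 0 genes of these lists were called in either direction. The remaining cytosolic ribosomal protein genes (31 tested) behaved like the 48: 26 were positive, the median log2 fold change was 0.10, and wild type replicate 2 exceeded the other wild type libraries for 28 of 31. The highest estimate was 0.18 ± 0.10 for Rps10 (64.71, 68.32 and 52.68 CPM against 73.52, 69.58 and 67.79 CPM; adjusted p = 0.3214). Of 6 tested paralogs, near copies of ribosomal protein genes with their own loci, 5 were positive with a median of 0.11. Rpl22l1, the paralog of Rpl22, had 42.48, 51.83 and 38.02 CPM against 57.07, 52.88 and 49.75 CPM (0.27 ± 0.11, adjusted p = 0.2332), and Rps6-ps4 was lowest at -0.03.

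The mitochondrial ribosome is built from other proteins, encoded in the nucleus as well. Of 76 tested genes, 65 were positive, the median was 0.13, 12 had an unadjusted p under 0.05 in the higher direction and 0 in the lower (7.05% and 12.2% of all tested genes), and 15 had no overlap in the higher direction (11.7% of all tested genes). Their medians per library, -0.19, 0.08 and -0.08 in wild type and 0.07, 0.06 and 0.07 in duplication libraries, had the same order of high and low wild type libraries. Mrpl14 was highest, with 5.717, 6.262 and 6.813 CPM against 9.138, 8.452 and 8.702 CPM (0.49 ± 0.11, adjusted p = 0.1738, no overlap), and Mrps15 lowest at -0.17 ± 0.10.

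The initiation factors (32 tested) were more spread out, with 22 positive and a median of 0.08. Eif4g3, a scaffold of the cap-binding complex, had 221.7, 112.9 and 191.1 CPM against 83.84, 106.6 and 110.8 CPM (-0.80 ± 0.22, adjusted p = 0.1738). All duplication libraries lay below all wild type libraries, and wild type replicate 2 stood close to the duplication libraries. Eif3m had 55.26, 69.51 and 57.88 CPM against 74.57, 71.4 and 69.55 CPM (0.24 ± 0.09, adjusted p = 0.2086). Elongation factors and other TOP genes (18 tested) had 14 positive and a median of 0.06, from Pabpc1, the cytoplasmic poly(A)-binding protein, at -0.45 ± 0.15 (adjusted p = 0.1809) to Eif3e at 0.19 ± 0.08 (adjusted p = 0.2523).

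Ribosome biogenesis genes (42 tested) had 24 positive and a median of 0.02, from Nol6 at -0.30 ± 0.14 to Nop10, a component of the particles that modify ribosomal RNA, at 0.29 ± 0.11. Genes of mTORC1 and S6 kinase signalling (24 tested) had 15 positive and a median of 0.06. They ran from Larp1, which binds TOP messages, at -0.41 ± 0.13 (adjusted p = 0.176) to Rheb, the small GTPase that activates mTORC1, at 0.19 ± 0.07 (adjusted p = 0.2037). Host genes of small nucleolar RNAs (12 tested) had a negative median, -0.15, with 3 positive. Snhg11, a host RNA abundant in neurons, had 367.2, 291.9 and 426.9 CPM against 246.1, 223.5 and 270.1 CPM (-0.55 ± 0.13, adjusted p = 0.1734, no overlap), and Snhg4 was highest at 0.09 ± 0.12.

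**Figure D5:**
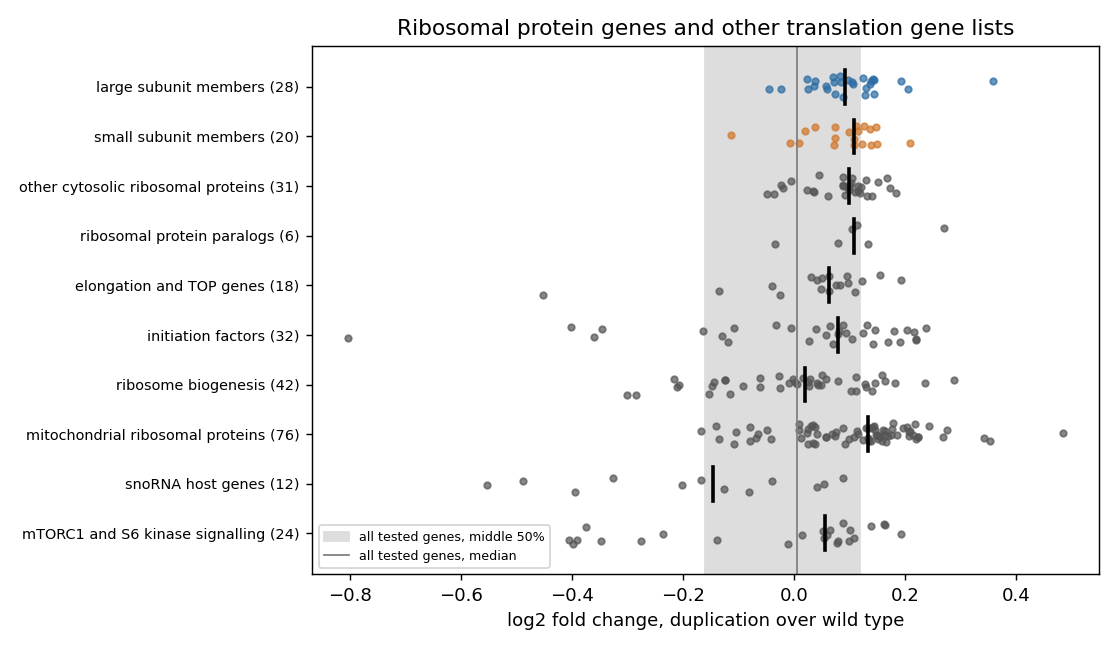
Log2 fold change of duplication over wild type for each tested gene of the ribosomal protein lists and 8 other translation lists, 1 point per gene, with a black bar at each median; the grey band spans the middle 50% of all tested genes and the grey line their median. The ribosomal protein points cluster between 0 and 0.2, while initiation factors, snoRNA host genes and mTORC1 genes reach below -0.4. In the list of elongation and TOP genes only Pabpc1, which is not an elongation factor, lies below -0.4.

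Without wild type replicate 2, the same lists gave calls in both directions. That library was singled out from these same data because it lay with the duplication libraries, so leaving it out favours wider differences. The calls describe the weight of that library and are not support for a genotype difference. Rose and fell here mean called higher and lower in that fit. Of the 31 remaining cytosolic ribosomal protein genes 4 rose and 0 fell, and of 76 mitochondrial ones 12 rose and 0 fell. Mrpl14, at 0.48 (edgeR adjusted p = 0.04022), and the paralog Rpl22l1, at 0.40 (adjusted p = 0.01219), were among those that rose. Of 32 initiation factors 7 rose and 5 fell, with Eif4g3 at -1.04 (adjusted p = 0.001903) and Eif3m at 0.34 (adjusted p = 0.008006). Pabpc1 fell (-0.64, adjusted p = 0.001903), as did Nol6 (-0.45, adjusted p = 0.008974), and Nop10 rose (0.40, adjusted p = 0.02571). Of 24 genes of mTORC1 and S6 kinase signalling 3 rose and 7 fell, with Rheb at 0.25 (adjusted p = 0.02715) and Larp1 at -0.55 (adjusted p = 0.003358). Of 12 snoRNA host genes 0 rose and 2 fell, Snhg11 at -0.69 (adjusted p = 0.002145) among them. The background shares are those given above, 4.65% higher and 10.7% lower.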

How the data were processed

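RNA was extracted with Trizol and sequenced from ribosome-depleted, stranded total RNA libraries (TruSeq with Ribo-Zero), per the labels' protocols. Per the submitters' processing notes, cutadapt, TopHat2, HTSeq and build mm10 were used; their versions, the annotation and the strand setting are not given in the sources. Deposited by the authors are raw counts per gene, not normalized, in 1 joint table and 1 table per library, and none of 274806 values compared differed between them. The joint table has 45807 count lines and 45801 names, 25 of them turned into date numbers. Names were moved to their counts at 6 breaks, by an offset that rises to 6, and 25 names on each side of a break were left out, which leaves 45470 named lines and 337 unnamed ones with 0.909% to 0.954% of a library's counts. After this, 43 of the 48 genes had more counts than both neighbouring lines. For the 29 shifted genes the median of summed wild type counts was 4306, against 251 as deposited. The places of the breaks come from an earlier analysis of these counts.

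Genes were tested with edgeR 4.0.16 in R 4.3.3 (TMM factors, filterByExpr by group, quasi-likelihood F-test, Benjamini-Hochberg adjustment over 15398 genes, threshold 0.05). Values after ± are standard errors of the log2 fold change unless SD is written, and log2 CPM adds a prior count of 2. DESeq2 1.42.0 and limma-voom (limma 3.58.1) were alternatives, with other normalizations, filters, names and left-out libraries. Unadjusted p-values are counted, not read as calls. No label says that libraries are separate animals, so the p-values only measure the spread between samples, which may be technical, and counts cover counting error only. Positions and spans come from GENCODE vM21 on GRCm38, pseudogene copies from blastn 2.17.0, and starts from RefSeq.

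The 48 genes and all lists were chosen with earlier results of these data known. Named in full are, per subunit, the 3 genes highest per kilobase and the 3 highest and lowest by log2 fold change, then any called gene, the stalk genes, Rps6, Rpsa and Fau. Of every other translation list the highest and lowest gene and any called gene are named, except 1 gene that is not reported here. Genes called without wild type replicate 2, or without overlap, and the role groups were chosen after values were seen.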

Additional observations from a re-analysis of the deposited data

How the results depend on the processing

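The direction of the family and the absence of calls held under the normalizations, filters and tools that were run: 43 to 46 of the 48 genes were positive and 0 were called with DESeq2 size factors, upper-quartile factors, library size only, TMM factors without ribosomal protein genes, no filter, a stricter filter, DESeq2 and limma-voom. Over these settings the median log2 fold change ran from 0.09 to 0.13. The lowest count of a member in a library was 100, and which limit keeps the genes from being called was not tested. The causes of the moves below were not tested, except where fewer libraries, fewer names or the covariate make them. Counts below that stand without a share over all tested genes only describe that setting.

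With upper-quartile factors 7 of the 48 genes had an unadjusted p under 0.05 in the higher direction, and the log2 fold changes of Rpl28 and Rps23 became 0.00196 and 0.0185. With library size only 2 genes had no overlap in the higher direction, and Rps23 became 0.00757. Without a filter 7 of the 48 genes had an unadjusted p under 0.05, and Rps23 became 0.00301. Of the 26418 genes then tested, 173 were called higher and 843 lower. In that fit the calls in the lower direction were 1 for elongation and TOP genes, 3 for initiation factors, 1 for ribosome biogenesis, 2 for snoRNA host genes and 4 for mTORC1 and S6 kinase signalling, and 1 mitochondrial ribosomal protein gene was called higher. With the stricter filter (at least 1 CPM in all 6 libraries) 2 genes had an unadjusted p under 0.05, 1 gene had no overlap in the lower direction, and Rps29 became -7.63e-06. DESeq2 gave 2 genes with an unadjusted p under 0.05 and called 46 genes higher and 239 lower in all, 1 of ribosome biogenesis and 1 snoRNA host gene among the lower.

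With the TEC and sense intronic level as a covariate, the median log2 fold change was -0.0863 for the 48 genes, -0.0883 for the large subunit, -0.0848 for the small subunit, -0.0688 for other cytosolic ribosomal proteins, -0.0698 for paralogs, -0.0779 for elongation and TOP genes, -0.0217 for initiation factors, -0.0442 for ribosome biogenesis, -0.0616 for mitochondrial ribosomal proteins and 0.0262 for mTORC1 and S6 kinase signalling. In that fit 0 of the 48 genes had an unadjusted p under 0.05 in the higher direction and 2 in the lower. With names as deposited 36 of the 48 symbols passed the filter, and their counts belong to other genes for the shifted ones. Then 1 had an unadjusted p under 0.05 in the higher and 3 in the lower direction, 2 had no overlap in the higher and 3 in the lower direction, and the medians of mitochondrial ribosomal proteins and of mTORC1 and S6 kinase signalling were 0.0375 and -0.011. With names within 100 lines of a break left out, 2 genes had an unadjusted p under 0.05.

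The labels give no pairing by replicate number, and the deviations of same-numbered libraries correlated at 0.102, 0.0629 and 0.311, not all above 0.1, so pairing was not established. Of the 3 wild type libraries 2 correlated best with their own number, a hint from the data and not the design. With a replicate block 6 of all genes were called higher and 1 lower, 0 of the 48 were called, and their median was 0.1045.

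Leaving out each library in turn gave, for the 48 genes, 0 to 9 called higher, 1 to 30 with an unadjusted p under 0.05 in the higher and 0 to 1 in the lower direction, 6 to 37 with no overlap in the higher and 0 to 1 in the lower direction. The highest of these higher counts came without wild type replicate 2. In that fit 13.8% of all tested genes were higher at an unadjusted p under 0.05, and 24.5% had no overlap in that direction. Without duplication replicate 3, 19 had no overlap in the higher direction, against 17.5% of all tested genes. Over all genes 0 to 730 were called higher and 0 to 1676 lower, with each maximum again without wild type replicate 2. Calls in the higher direction ran from 0 to 4 for other cytosolic ribosomal proteins, 0 to 1 for paralogs, 0 to 1 for elongation and TOP genes, 0 to 7 for initiation factors, 0 to 2 for ribosome biogenesis, 0 to 12 for mitochondrial ribosomal proteins and 0 to 3 for mTORC1 and S6 kinase signalling. Calls in the lower direction ran from 0 to 2 for elongation and TOP genes, 0 to 5 for initiation factors, 0 to 3 for ribosome biogenesis, 0 to 2 for snoRNA host genes and 0 to 7 for mTORC1 and S6 kinase signalling. The median ran from 0.0567 to 0.1577 for the 48 genes, 0.0485 to 0.1242 for initiation factors, -0.0217 to 0.0621 for ribosome biogenesis and 0.0119 to 0.0718 for mTORC1 and S6 kinase signalling. Log2 fold changes that changed sign with a library left out ran from -0.00915 to 0.1386 for Rpl38, -0.0152 to 0.0957 for Rpl34, -0.0594 to 0.0698 for Rps29, -6.02e-05 to 0.0867 for Rpsa, -0.1046 to 0.033 for Rpl30, -0.0253 to 0.0128 for Rps23, -0.0415 to 0.0133 for Rpl28 and -0.1016 to 0.00679 for Rps6-ps4.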
